A study of Mus musculus with 8 samples.

Results

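The 4 arrays described here, of 8 in the series, measured how mouse bone marrow cells that carry ERT2 Cre but no flox allele changed over 3 days under CSF-1. They are the 2 arrays labelled ERT2 Cre no tamoxifen and the 2 labelled ERT2 Cre with tamoxifen, chosen by these labels alone. The genetic background is given as C57BL/6 x B6:129 Ola. ERT2 Cre is a recombinase held inactive until tamoxifen reaches its estrogen receptor part, so both groups of control cells carry it, and one was exposed to the drug. The promoter that drives it, the tamoxifen dose, the animals' age and whether animals were pooled are not given in the sources used here. The other 4 arrays are of cells labelled ERT2 Cre Thoc5 (flox/flox), so homozygous for a flox allele of Thoc5. THOC5 is a subunit of the mRNA export complex TREX. On each array, cytoplasmic RNA of day 3 in one colour met day 0 RNA in the other, both from cells of 1 genotype and 1 experiment. The labels call the cells of both days bone marrow derived macrophages, and day 0 is the start of differentiation. There were 2 experiments, with the dyes exchanged between them and each on a slide of its own, so experiment, dye and slide cannot be told apart. Nothing in the labels says which animals or cultures the experiments came from, so p-values measure only the spread between these arrays, which may be technical.

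CSF-1 is the growth factor of the macrophage lineage. It binds the receptor tyrosine kinase CSF1R on progenitors and monocytes, lets them survive and divide, and carries them towards macrophages, whereas granulocytes, their precursors and other marrow cells that do not depend on it are lost from such cultures. Maturing macrophages build up lysosomes, Fc and complement receptors, and the machinery that handles the lipid of engulfed cells. In a bulk culture such as this one, fewer cells of a type and less RNA per cell cannot be told apart.

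The values below are log2 ratios of day 3 over day 0, so 1 is a 2-fold rise and -1 a 2-fold fall, and a gene's 4 values are given in the order experiment 1 without and with tamoxifen, then experiment 2 without and with tamoxifen. Of 17945 genes tested, 4725 (26.3%) were higher and 6691 (37.3%) lower at day 3 at an adjusted p under 0.05 in limma with Benjamini-Hochberg adjustment. Each gene stands for its brightest probe. Of the 2457 called genes with a further kept probe, 840 had one of opposite sign. The fit holds the experiment as a term, so its p-values and standard errors (SE) leave out the difference between experiments, and 212 of the called genes had mean ratios of opposite sign in the 2 experiments. The counts below therefore lead with a stricter group, genes that passed the test, changed at least 2-fold on average and had 1 sign on all 4 arrays: 570 (3.18%) rose and 1311 (7.31%) fell. Of these, 42 rose and 206 fell at least 4-fold, and 8 rose and 30 fell at least 8-fold. The median over all genes was -0.06, with quartiles of -0.42 and 0.23. The counts of each gene list below are to be read beside these values and the shares above.

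Between 53.05% and 58.56% of the probes were well above background in a channel of the control arrays, and no spot was saturated. Across genes, which are not independent replicates, the ratios of the 2 experiments correlated with r = 0.785 without tamoxifen and r = 0.881 with it. THOC5 checks the labels. Its ratios in the control cells were -0.40, -0.21, -0.28 and -0.15, against -3.04 and -3.02 in the flox cells with tamoxifen and -0.74 and -0.77 in the flox cells without it. Control and flox arrays with tamoxifen therefore lie far apart for Thoc5 (probe at chr11:4828807-4828866, mm9), and the control arrays stay close to 0.

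Neutrophil genes showed the deepest fall. Camp (probe at chr9:109749911-109749970, mm9), which encodes the antimicrobial peptide precursor of neutrophil granules, had ratios of -6.04, -5.66, -6.23 and -5.98. That is a 63.0-fold fall (mean -5.98, SE 0.07, n = 4 arrays, adjusted p = 9.1e-08). S100a8 and S100a9, the 2 chains of calprotectin, had ratios of -5.88, -5.78, -6.02 and -6.22, and of -5.06, -4.99, -5.89 and -5.72. Chil3, a chitinase-like protein of neutrophils and some macrophages, had -5.56, -5.41, -5.90 and -5.99. The 4 arrays lay within 1 log2 unit of each other for each of these genes. Of 50 tested genes on a list of late granule and S100 genes, 43 passed the test lower and 3 higher, and 30 fell at least 2-fold, with a list median of -1.55. The 3 that went up included Fpr1, a receptor for bacterial peptides (0.53), and Trem1, an activating receptor (0.27).

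Primary granule genes, which mark earlier granulocyte and monocyte precursors, fell as well. Ctsg (cathepsin G) had ratios of -4.73, -4.63, -4.90 and -5.07. Mpo (myeloperoxidase) had -3.29, -3.29, -3.67 and -3.65, and Prtn3 (proteinase 3) had -2.82, -2.77, -2.80 and -2.75. These genes differed little between arrays. Of 18 tested genes of this list, 10 passed lower and 2 higher, 9 of them lower by at least 2-fold, with a median of -0.78. Elane, neutrophil elastase, named after its values were seen, stood apart from its neighbours on the list with ratios of -0.14, -0.05, -0.08 and -0.06. The 2 members called higher were Ctsc, the protease that activates granule enzymes (0.84), and Alas1, the first enzyme of heme synthesis (0.28, adjusted p = 0.047). The bases upstream of Mpo and Prtn3 are shown because both carry the letters GAGGAAGT, the form of the PU.1 motif searched on both strands. They stand in capitals, 5′ to 3′ on the gene's strand, up to the base before the start (RefSeq, GRCm38.p6).
Mpo (chr11:87793544-87793783, plus strand): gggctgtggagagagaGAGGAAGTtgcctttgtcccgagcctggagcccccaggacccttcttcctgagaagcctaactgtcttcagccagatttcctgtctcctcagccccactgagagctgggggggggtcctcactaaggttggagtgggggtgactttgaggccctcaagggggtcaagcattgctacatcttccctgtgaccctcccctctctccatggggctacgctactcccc
Prtn3 (chr10:79879427-79879666, plus strand): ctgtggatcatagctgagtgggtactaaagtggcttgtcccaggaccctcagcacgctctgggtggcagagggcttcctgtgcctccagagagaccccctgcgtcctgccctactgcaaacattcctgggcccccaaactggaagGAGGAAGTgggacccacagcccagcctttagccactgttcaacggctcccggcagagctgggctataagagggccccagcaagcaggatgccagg
Among the 250 bases before the start, 4 of 17 promoters of primary granule genes (23.5%) and 4 of 42 of late granule genes (9.52%) held these letters, against 2.58% of 13911 promoters of tested genes. Among genes changed at least 2-fold the letters stood in 3.18% of promoters of higher and 2.52% of lower genes. A match is a description of the letters, not a bound site.

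**Figure D1:**
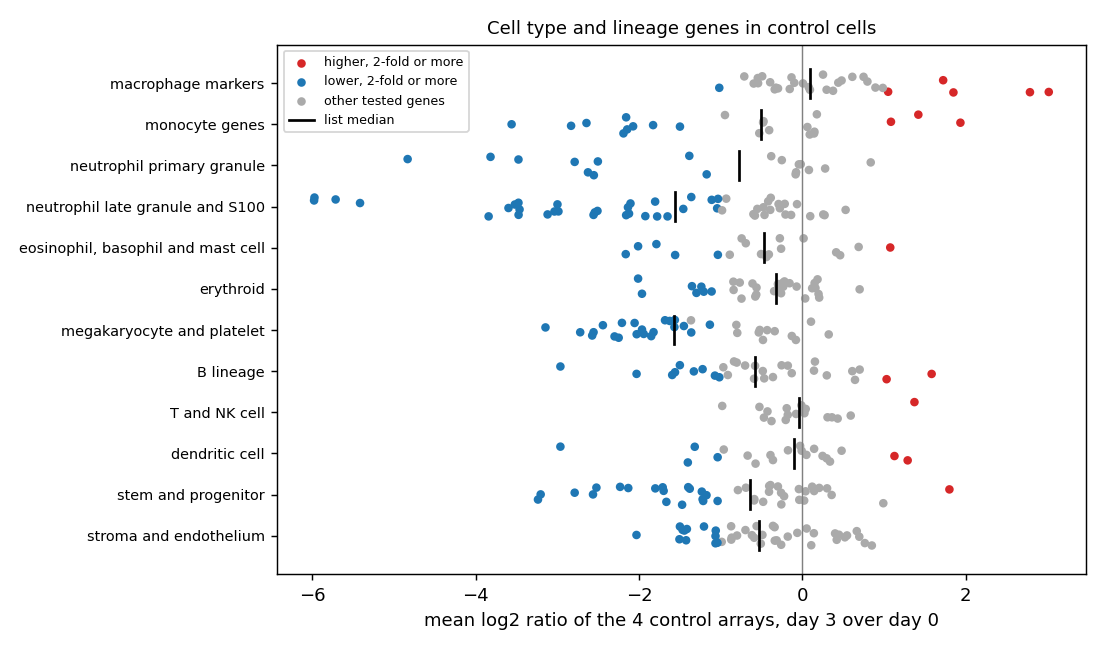
Each dot is a tested gene of a cell type or lineage list, placed at its mean log2 ratio of day 3 over day 0 over the 4 control arrays. Red and blue dots rose or fell at least 2-fold with 1 sign on the 4 arrays, grey dots are other tested genes and black bars are list medians, which range from -1.57 for megakaryocyte genes to 0.09 for macrophage markers.

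Genes of macrophage identity rose in part. Apoe, the apolipoprotein that carries cholesterol out of macrophages, had ratios of 3.60, 3.58, 2.53 and 2.36 (8.09-fold, adjusted p = 1.5e-05). Cd5l, a secreted scavenger protein of tissue macrophages, had 3.24, 2.86, 2.82 and 2.24. The complement starters C1qa and C1qb had means of 1.72 and 1.85 and lay between 1.51 and 1.98 on the 4 arrays. Of 31 tested macrophage markers, 14 passed higher and 9 lower, with 5 rising and 1 falling at least 2-fold and a median of 0.09. Lgals3 (galectin 3) fell (-1.02), and Msr1, a scavenger receptor, was lower at -0.71 on its brightest probe and 0.50 on a further probe.

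The defining markers were bright on both days, and their answer depended on the probe. Adgre1 and Itgam, like Csf1r, were named outside the rule for gene names given below. Csf1r, the CSF-1 receptor, named after its values were seen, had ratios of 0.25, 0.26, -0.44 and -0.61 on its brightest probe (mean -0.13, adjusted p = 0.11), and 0.35 on average with median centring in place of loess. Its other 2 probes had means of 0.53 and 1.18, positive on all 4 arrays. Adgre1, the adhesion receptor used to mark mouse macrophages, had a mean of 0.61 on its brightest probe, a call lost without the experiment term (adjusted p = 0.061, limma), and 0.95 on the other. Itgam, the integrin chain CD11b, had 0.08 on its brightest probe and 1.19 and 0.57 on 2 others. All 3 genes were well above background on the 4 arrays at day 0 and at day 3.

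Transcription factors of the myeloid lineage moved both ways. Spi1, which encodes PU.1, the master factor of macrophages, rose with ratios of 1.88, 2.42, 2.60 and 2.47 (5.06-fold, adjusted p = 2.7e-05). Gfi1 and Cebpe, factors of granulocyte development, fell by 2.67 and 2.81 on the log2 scale. Batf3 rose (1.29), as did Egr2 (1.15) and Egr1 (1.33), immediate early factors tied to monocyte fate. Of 34 tested factors, 16 passed higher and 9 lower, 5 and 3 of them by at least 2-fold. Runx3 fell on its brightest probe (-1.82), while its further probe had 0.13.

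Monocyte genes parted in 2 directions. Ccr2, the receptor that brings monocytes out of the marrow, had ratios of -2.64, -3.33, -2.39 and -2.96. Plac8 had -2.75, -3.77, -3.23 and -4.49, lower with tamoxifen than without in both experiments, and Cx3cr1, the fractalkine receptor, had a mean of -2.14. Ms4a6c rose evenly instead (1.97, 2.03, 1.86 and 1.88), and Itgal, the integrin chain of LFA-1, had a mean of 1.42. Of 22 tested monocyte genes, 12 passed lower and 3 higher, 9 and 3 of them by at least 2-fold, with a median of -0.50.

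Genes of other blood lineages were mostly lower. Megakaryocyte and platelet genes had the lowest median of the 43 lists (-1.57): 29 of 33 passed lower and 1 higher, and 21 fell at least 2-fold. Itgb3 and Itga2b, the 2 chains of the platelet fibrinogen receptor, had means of -2.44 and -2.30, and Treml1 had -2.03. A dimmer further probe of Itgb3 had -0.38. Of 32 erythroid genes 22 passed lower and 1 higher (median -0.32), with Gata1, the erythroid and megakaryocyte factor, at -2.01. Of 18 eosinophil, basophil and mast cell genes 13 passed lower and 4 higher (median -0.47). Hdc, which makes histamine, fell (-2.16), and Siglecf, an eosinophil marker that some macrophages also carry, rose (1.08). Of 30 B lineage genes 19 passed lower and 6 higher (median -0.59). Vpreb3, an early B lineage gene, had -2.03, while Cd79b had 2.04, 1.83, 1.46 and 1.00. At day 3, Gfi1, Il1r2 and Vpreb3 were well above background on 2 of the 4 control arrays, Spry1 on 3, and Ctse and Fcmr on 1, so their day 3 levels were measured on those arrays alone. At day 0 the same held for Pgbd5 on 3 arrays and Gm14461 on 1.

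T and NK cell genes lay near the shares of all genes tested. Of 18 tested, 5 passed higher and 6 lower (27.8% and 33.3%, beside 26.3% and 37.3%), with a median of -0.04. None fell at least 2-fold, against 7.31% of all genes tested, and Ccl5, a chemokine that macrophages make too, rose (1.37). Of 20 dendritic cell genes, 5 passed higher and 9 lower (25% and 45%, median -0.10), and Siglech, a marker of plasmacytoid cells, fell (-1.32). Stem and progenitor genes fell more clearly: 29 of 42 passed lower and 4 higher, 19 and 1 of them by at least 2-fold, with a median of -0.64. Cd34, the progenitor surface protein, had ratios of -3.58, -3.63, -2.82 and -2.92, and a dimmer further probe a mean of -0.51. Kit, the stem cell factor receptor, was not well above background at day 3 on any control array, which leaves a fall of at least 2.79-fold, taken against the lowest signal well above background on each array (measured mean -1.80, adjusted p = 3.4e-05). Of 42 stromal and endothelial genes, 22 passed lower and 7 higher, 12 fell at least 2-fold and none rose that far, with a median of -0.53.

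Tmem176a, Cd55, Cd55b and Cp were among the 15 genes that rose most. Tmem176a (probe at chr6:48794048-48794107, mm9), an intracellular channel protein of macrophages and dendritic cells, had ratios of 3.70, 3.86, 3.24 and 3.18 (11.3-fold, adjusted p = 1.7e-06). Its partner Tmem176b had a mean of 2.36. Cd55, which encodes the complement decay accelerating factor, had 4.17, 3.58, 2.80 and 3.11, and its close copy Cd55b had 3.56, 3.53, 3.13 and 3.14. These 2 genes are near-identical copies, so their probes may share signal. Cp, which encodes ceruloplasmin, the ferroxidase that loads iron onto its carrier, had 4.06, 3.76, 2.85 and 2.72. Dimmer further probes had means of 1.23 for Cp, 1.00 for Nrxn2 and 0.18 for Cd55b. The chemokine Ccl8 had 3.67, 3.01, 2.86 and 2.09. Fgl2, Enpp2 (autotaxin), Asb2, Hpgd (the enzyme that breaks down prostaglandins), Nrxn2, Raver2, Pgbd5 and 1700003M07Rik make up the rest of the first 15 besides Apoe and Cd5l, with means of 2.71 to 3.54. Of the 15, 13 had a higher mean in experiment 1 than in experiment 2.

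**Figure D2:**
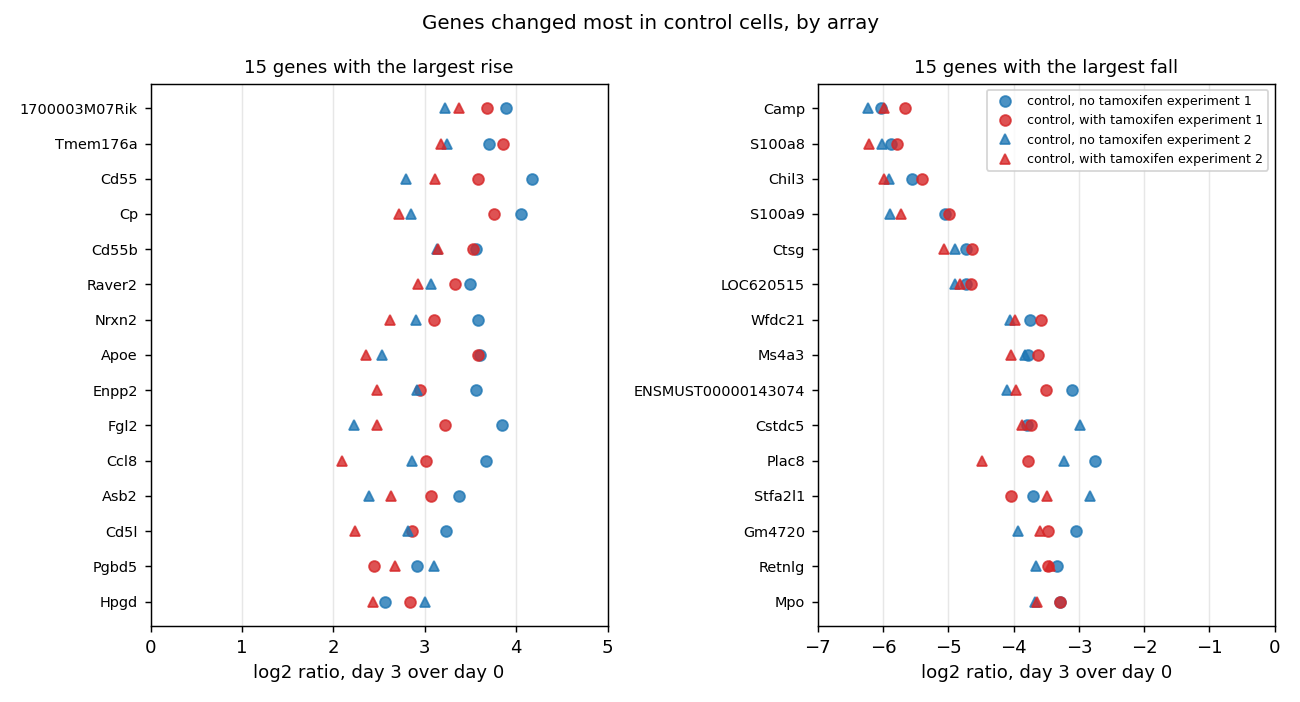
Log2 ratio of day 3 over day 0 on each of the 4 control arrays (colour: without or with tamoxifen; shape: experiment) for the 15 genes with the largest rise and the 15 with the largest fall. All 4 arrays of Camp lie between -6.23 and -5.66, and those of Cp between 2.72 and 4.06, with the 2 arrays of experiment 1 on the right.

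Genes of the cell cycle fell almost without exception. Of 72 tested genes of mitosis and the kinetochore, 71 passed lower and 1 higher, and 52 fell at least 2-fold, with a median of -1.27. Mki67, the proliferation marker Ki-67, had ratios of -2.78, -2.33, -2.61 and -1.91 (5.30-fold lower, adjusted p = 4.9e-06). Plk1, the mitotic kinase, had -1.53, -1.07, -1.74 and -1.29. Kif11, the motor that parts the spindle poles, had -1.95, -1.34, -1.86 and -1.15, and Gtse1 had -1.78, -1.11, -1.89 and -1.25. In each of these 4 genes the arrays without tamoxifen lay lower than those with it in both experiments. The member called higher, Psrc1, had ratios of 0.42, 0.80, -0.32 and 0.05, with no common sign (adjusted p = 0.024).

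The genes of DNA replication followed. Of 58 tested, 51 passed lower and 3 higher, and 31 fell at least 2-fold, with a median of -1.03. Mcm2, a subunit of the replicative helicase, had ratios of -2.53, -2.32, -2.01 and -1.82, Mcm10 had -2.08, -1.70, -2.05 and -1.67, and the polymerase subunit Pold1 had -1.62, -1.57, -1.47 and -1.47. Rfc3 of the clamp loader and Slbp, which binds histone mRNA, were 2 of the 3 called higher, and both were higher in experiment 2 (0.98 and 0.94 for Rfc3) than in experiment 1 (0.09 and 0.39). Among p53 targets and cell cycle inhibitors 21 of 40 passed lower and 5 higher, Cdkn2c (p18) with -1.53, -0.89, -1.39 and -0.65.

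The promoters of the 4 mitotic genes are shown because they share the CCAAT box, the NF-Y motif, and in 2 of them the CHR element of cell cycle genes. The motifs searched on both strands were CCAAT and TTTGAA. They stand in capitals, as ATTGG or TTCAAA where the match lies on the other strand, in 200 bases before the start, 5′ to 3′ on the gene's strand (RefSeq, GRCm38.p6). Gtse1 has 2 listed starts, of which the one with matches is printed; the 200 bases before the other hold neither motif.
Mki67 (chr7:135716380-135716579, minus strand): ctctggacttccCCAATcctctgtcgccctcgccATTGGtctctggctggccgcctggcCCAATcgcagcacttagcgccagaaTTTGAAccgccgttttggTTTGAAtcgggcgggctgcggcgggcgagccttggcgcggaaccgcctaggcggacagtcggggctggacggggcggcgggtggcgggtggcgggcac
Gtse1 (first of 2 starts, chr15:85859507-85859706, plus strand): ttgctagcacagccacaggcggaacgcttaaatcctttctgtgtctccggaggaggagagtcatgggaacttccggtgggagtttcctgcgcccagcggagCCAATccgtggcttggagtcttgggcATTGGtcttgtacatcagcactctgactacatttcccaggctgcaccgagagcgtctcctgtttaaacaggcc
Plk1 (chr7:122159235-122159434, plus strand): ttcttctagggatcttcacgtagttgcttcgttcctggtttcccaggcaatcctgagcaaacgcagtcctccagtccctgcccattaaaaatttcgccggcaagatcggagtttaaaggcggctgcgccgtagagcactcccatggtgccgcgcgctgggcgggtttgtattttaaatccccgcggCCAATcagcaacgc
Kif11 (chr19:37376182-37376381, plus strand): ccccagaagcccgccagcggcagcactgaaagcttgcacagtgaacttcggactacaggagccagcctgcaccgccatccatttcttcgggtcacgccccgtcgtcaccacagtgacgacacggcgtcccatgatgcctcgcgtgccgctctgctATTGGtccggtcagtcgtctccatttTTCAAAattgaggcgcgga
In the 250 bases before the start, 71.8% of the 71 promoters of mitosis genes held CCAAT and 32.4% held TTTGAA, against 35.1% and 11.4% of the promoters of tested genes. CCAAT was not particular to genes that fell: 66.7% of the 30 promoters of cholesterol synthesis genes, a list with a median ratio of 0.17, held it too. In the 56 promoters of replication genes, 12.5% held the E2F letters TTTCCCGC or TTTGGCGC, against 2.24% of the promoters of tested genes and 1.41% of those of mitosis genes.

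**Figure D3:**
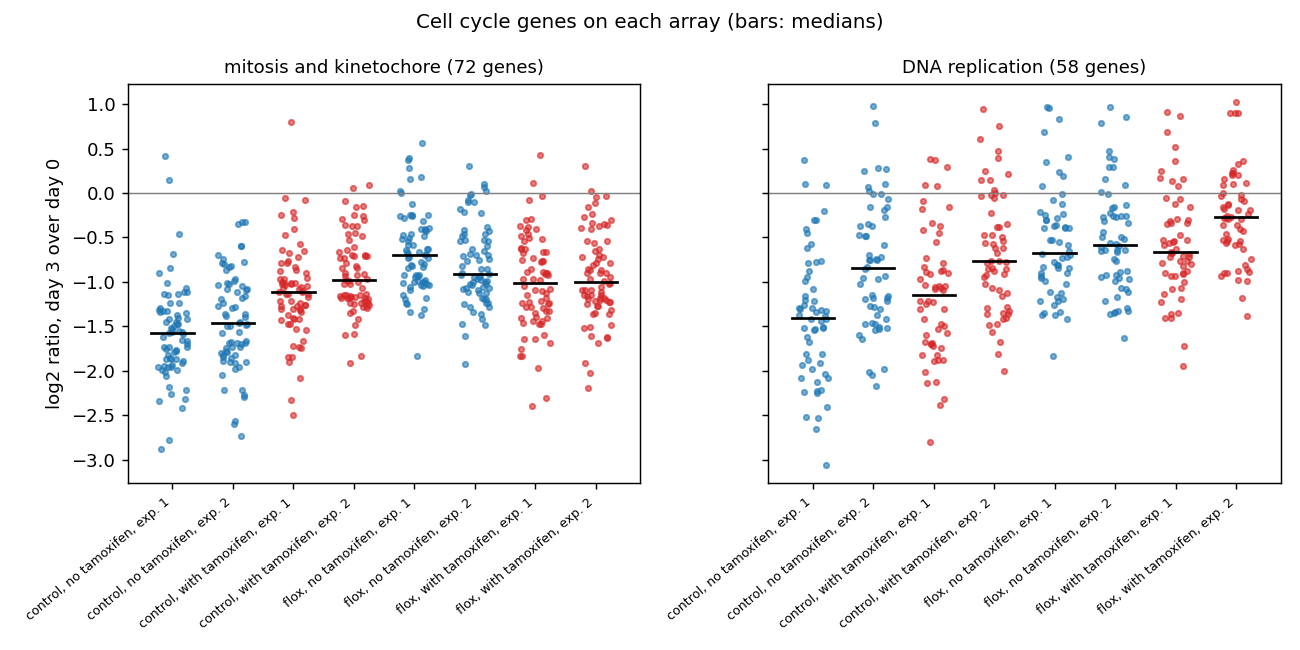
Log2 ratio of day 3 over day 0 of the tested genes of mitosis (72) and DNA replication (58) on each of the 8 arrays, with bars at the medians. For mitosis the control arrays without tamoxifen have medians of -1.58 and -1.47, those with it -1.11 and -0.98, and the flox arrays between -1.01 and -0.69.

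Most glycolysis genes fell, and few respiratory chain or ribosomal protein genes changed by 2-fold. Of 33 genes of glycolysis and the hypoxia response, 23 passed lower and 2 higher, and 18 fell at least 2-fold, with a median of -1.08. Tpi1, a glycolytic isomerase, had ratios of -1.87, -1.74, -1.34 and -1.55, and Pdk1, a pyruvate dehydrogenase kinase, had -1.62, -1.56, -1.45 and -1.54. Ldha, the lactate enzyme, named after its values were seen, had -2.15, -1.87, -1.36 and -1.79 on its brightest probe. Its 2 further probes, also bright, had means of -0.50 and 0.13, so the fall of Ldha depended on the probe. The further probe of Tpi1 had a mean of -0.69. Ndrg1, also known as a hypoxia target, went the other way (2.31, 1.82, 1.26 and 1.24). Of 75 respiratory chain genes, 15 passed higher and 21 lower (20% and 28%, beside 26.3% and 37.3% of all genes tested), with a median of -0.08. The 2 that rose at least 2-fold, Ndufa6 (1.03) and Ndufa10 (1.04), are 2.67% of the list, beside 3.18% of all genes tested. None fell that far, against 7.31% of all genes tested. Of 76 cytosolic ribosomal protein genes, 26 passed higher and 11 lower, none reached 2-fold, and the median was 0.06. That median was 0.166 and 0.201 on the arrays of experiment 1 and -0.076 and -0.113 on those of experiment 2. Rpl31, Rps27, Rps29 and Rps4x are among those called higher. The deposited annotation places their probes on another chromosome than these genes, so these calls cannot be assigned to them.

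Most protein folding genes fell, and other biosynthetic groups moved less or unevenly. Of 35 genes of protein folding in the endoplasmic reticulum, 23 passed lower and 1 higher, 6 fell at least 2-fold and the median was -0.52. Hsp90b1, a chaperone that folds Toll-like receptors and integrins, had ratios of -1.62, -1.74, -1.60 and -1.58. Of 52 ribosome biogenesis genes, 31 passed lower and 6 higher (median -0.33), but their median was -0.65 and -0.57 on the arrays of experiment 1 and 0.06 and -0.10 on those of experiment 2. Of 36 proteasome genes, 8 passed higher and 15 lower (median -0.11), which is 22.2% and 41.7% beside 26.3% and 37.3% of all genes tested. Of 31 genes of TREX and mRNA export, 18 passed lower and 2 higher (median -0.31). Alyref, the TREX adaptor that hands mRNA to the exporter, had -1.74, -1.50, -0.93 and -0.99. Thoc3, a subunit of the same THO complex as THOC5, was one of the 2 called higher (0.73).

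Lipid genes rose selectively. Of 41 genes of LXR, PPAR and lipid handling, 17 passed higher and 17 lower, 10 rose and 3 fell at least 2-fold, and the median was -0.02. Pltp, a phospholipid transfer protein, had ratios of 2.15, 2.03, 1.44 and 1.55, and Vldlr had 1.59, 2.09, 1.54 and 1.72. Abca1, the cholesterol efflux pump, named after its values were seen, had 2.95, 1.99, 1.11 and 1.02. Dgat2, which makes triglycerides, fell (-1.17). Of 34 cholesterol synthesis genes, 17 passed higher and 7 lower, 4 and 1 of them by at least 2-fold, with a median of 0.17. Insig1, the sterol sensor, had 1.29, 1.17, 1.56 and 1.36. Scd2, a desaturase, had 2.91, 2.10, 1.56 and 0.84, lower with tamoxifen in both experiments.

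Lysosomal genes moved both ways, with a median of 0.00 over 77 genes. Of these, 25 passed higher and 23 lower, 7 and 6 of them by at least 2-fold. The shares called were 32.5% and 29.9%, beside 26.3% and 37.3% of all genes tested. Ctsf (cathepsin F) had ratios of 1.78, 1.96, 1.23 and 1.42, and Acp5 (tartrate resistant acid phosphatase) had 1.65, 1.77, 1.11 and 1.15. Ctsk and Ctse, 2 further cathepsins, fell by 1.17 and 1.38 on the log2 scale. Acp5 and Atp6v0d2 (1.57) also stand on the list of osteoclast and fusion genes, where 7 of 27 passed higher and 13 lower (25.9% and 48.1%, median -0.17). Among 44 scavenger and efferocytosis genes 17 passed higher and 17 lower (median 0.07). Stab1 fell (-1.42), and Cd300lf, which senses lipids on dying cells, fell by 1.93.

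Several genes of the Fc receptor list rose. Of 11 Fc receptor genes, 6 passed higher and 3 lower, with a median of 0.58. Fcgr3, the low affinity IgG receptor, had ratios of 1.41, 1.70, 1.13 and 1.63, Fcrls had 2.56, 2.41, 1.96 and 1.77, and Fcgrt, the neonatal Fc receptor, had 2.58, 2.67, 1.63 and 1.73. Fcmr, the IgM receptor, fell (-1.56). The probe named for Pigr had -2.15, but the deposited annotation places it on another chromosome than that gene, so its value cannot be assigned to Pigr. Without it, 6 of 10 passed higher and 2 lower, with a median of 0.61. Of 27 complement genes, 13 passed higher and 6 lower, 6 and 1 of them by at least 2-fold (median 0.23). The one that fell, Clu (clusterin), had -2.17, -2.45, -2.29 and -2.71. The MS4A and TMEM176 families, tetraspan membrane proteins, had the highest median of the 43 lists (1.09): 8 of 13 passed higher and 2 lower, 7 rose at least 2-fold, and Ms4a3, a mark of granulocyte and monocyte precursors, fell (-3.82).

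**Figure D4:**
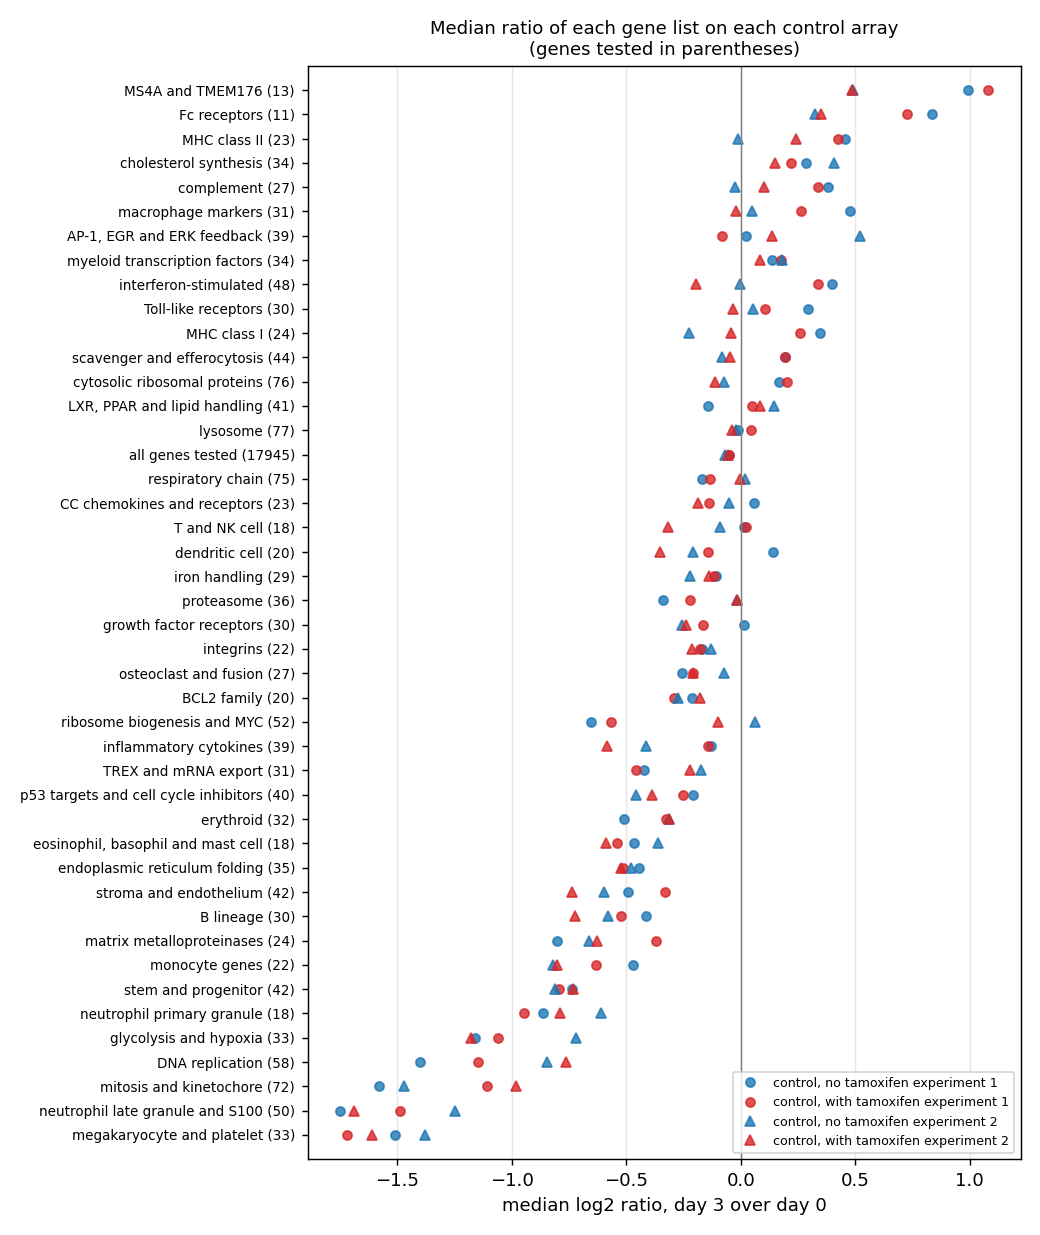
Median log2 ratio of day 3 over day 0 of each gene list on each of the 4 control arrays (colour: without or with tamoxifen; shape: experiment), with the number of tested genes. Megakaryocyte, late neutrophil granule and mitosis genes lie lowest and the MS4A and TMEM176 genes highest; all genes tested lie between -0.07 and -0.05.

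Antigen presentation and interferon genes were higher in part, and their list medians lay higher in experiment 1 than in experiment 2. By array, in the order used above, the medians were 0.454, 0.425, -0.014 and 0.243 for MHC class II genes. For MHC class I genes they were 0.347, 0.257, -0.225 and -0.044. Interferon-stimulated genes had medians of 0.397, 0.338, -0.005 and -0.196. Of 23 MHC class II genes, 12 passed higher and 4 lower, 6 rose at least 2-fold and the median was 0.23. Cd74, the invariant chain, had ratios of 2.57, 2.45, 1.53 and 1.79, and H2-DMa, which loads peptides, had 2.34, 2.38, 1.06 and 1.61. Cd83 rose too, with 2.18 and 1.77 without tamoxifen and 1.08 and 0.65 with it. Of 24 MHC class I genes, 10 passed higher and 7 lower (median 0.09), with Cd1d1, which presents lipids, at -2.03. Of 48 interferon-stimulated genes, 18 passed higher and 9 lower, 7 rose and none fell at least 2-fold, and the median was 0.08. Irf7, the factor that amplifies interferon production, had 2.77, 2.46, 2.07 and 1.57. Oas3 was called lower (-0.91). Of 30 Toll-like receptor genes, 14 passed higher and 9 lower (median 0.13), Tlr8 with 1.31, 1.51, 1.35 and 1.19.

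Inflammatory mediators moved both ways. Of 39 tested, 19 passed lower and 10 higher, 11 and 4 of them by at least 2-fold, with a median of -0.30. The shares called were 48.7% lower and 25.6% higher, beside 37.3% and 26.3% of all genes tested. Arg1 (arginase 1) had ratios of -2.36, -2.60, -1.66 and -2.39, and the neutrophil attractant Cxcl2, named after its values were seen, had -2.36, -1.68, -1.68 and -2.29. Il10, which restrains inflammation, rose (1.66, 1.31, 1.40 and 0.93), as did Il18bp, which binds IL-18 (mean 1.59). Of 23 CC chemokine and receptor genes, 6 passed higher and 6 lower (26.1% each, median 0.00). Of 24 metalloproteinase genes, 15 passed lower and 4 higher (median -0.57), with Mmp8, the neutrophil collagenase, at -3.34, -2.79, -3.29 and -2.72 and Mmp14 at a mean of 0.74. Of 22 integrin genes, 8 passed higher and 11 lower (median -0.15), and Itgb7 fell (-2.35).

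Of 30 growth factor receptor genes, 7 passed higher and 12 lower (median -0.10). That is 23.3% and 40%, beside 26.3% and 37.3% of all genes tested. Il1r2, the IL-1 decoy receptor, fell by 2.10 on the log2 scale, and Tgfbr2, a TGF-beta receptor, rose (1.35, 1.20, 0.88 and 0.81), as did Il4ra (1.04). A dimmer further probe of Il4ra had a mean of 0.32. Of 29 iron handling genes, 5 passed higher and 12 lower (17.2% and 41.4%, median -0.18). Cp rose most on that list, Hfe, the hemochromatosis protein, had a mean of 1.14, and Lcn2, the neutrophil siderophore binder, had -1.83, -1.77, -1.80 and -1.81. Of 20 BCL2 family genes, 3 passed higher and 9 lower (15% and 45%, median -0.14), with the death effector Bak1 at -1.01 and the survival gene Bcl2a1d at 1.18.

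Id1 parted the 2 experiments most, and other ID and inhibitory SMAD genes went with it; they were chosen here after their values were seen. ID proteins block basic helix-loop-helix factors, SMAD6 and SMAD7 hold back BMP and TGF-beta signals, and these genes are themselves targets of that pathway. Id1 (probe at chr2:152563083-152563142, mm9) had ratios of -0.21 and 0.37 in experiment 1 and 4.56 and 3.52 in experiment 2. Its 3.96 gap between experiment means was the largest of all genes tested. Smad6 had 0.07 and 0.13, then 2.46 and 2.26, Id3 had -0.25 and 0.18, then 2.01 and 2.14, and Id2 had 0.39 and 0.33, then 2.55 and 1.99. Smad7 was positive throughout (0.88, 0.76, 2.48 and 1.69). All 5 passed the test as higher, although for Id1, Id2, Id3 and Smad6 the highest ratio of experiment 1 was 0.39. Without the experiment term, limma gave an adjusted p of 0.082 for Id1, 0.068 for Id3, 0.0498 for Smad6, 0.022 for Id2 and 0.0046 for Smad7. The calls of Adgre4, Gprc5c, Nanos1, Alas1, Psrc1, Slbp and Trem1 were also lost in that fit (adjusted p = 0.057 to 0.29). In all, 288 genes (1.61%) differed by at least 1 between experiment means and 7 by at least 2 (Id1, Smad6, Id3, Bdh2, Gprc5c, Adgre4 and Nanos1), against a median difference of 0.20. Of 39 AP-1, EGR and ERK feedback genes, the list that holds Smad6, Smad7 and Id2, 18 passed higher and 11 lower (median 0.17), Junb with 0.93, 1.48, 1.22 and 1.16 and Spry1, a brake on ERK signals, at -1.24.

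**Figure D5:**
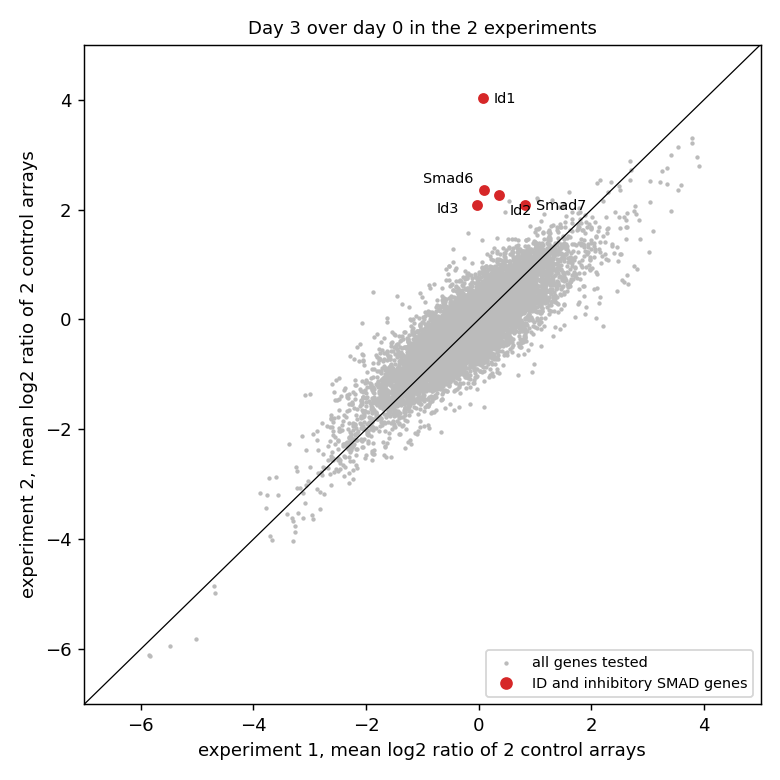
Mean log2 ratio of day 3 over day 0 of the 2 control arrays of experiment 1 (horizontal) against those of experiment 2 (vertical) for all genes tested, with the line of equality. Id1, Id2, Id3, Smad6 and Smad7, in red, lie above the line, Id1 at 0.08 and 4.04.

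Control cells with tamoxifen were compared with those without it. Both arrays of an experiment share the day 0 RNA, so the difference is one of day 3 cells. Tamoxifen also activates the ERT2 Cre that these cells carry, so the drug and active Cre cannot be told apart. No gene passed at an adjusted p under 0.05 (0% called, limma; smallest adjusted p = 0.057), although 1524 genes had an unadjusted p under 0.05, 871 higher and 653 lower with tamoxifen. A fit without the experiment term called 21 genes higher and 13 lower, and one with median centring 5 and 10. Leaving out experiment 1 of the cells without tamoxifen gave 1 higher and 11 lower, and leaving out their experiment 2 gave 0 and 1. Vegfa, the vascular growth factor, had day 3 ratios of -0.13 and -0.31 without tamoxifen and -1.65 and -2.25 with it, a difference of -1.73 (SE 0.14, adjusted p = 0.057). Plac8 differed by -1.14, Tgm2 (transglutaminase 2) by -1.46, N4bp3 by -1.17 and ENSMUST00000101149 by -1.02. On the other side, Sapcd2 differed by 0.91, Gm8956 by 0.92 and Ube2c, the ubiquitin enzyme of mitotic exit, by 0.89, while Il2ra (-1.11) and Mex3b (-2.09) were lower.

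Mitosis genes fell less on the arrays with tamoxifen, though none passed the adjusted threshold. Of 72, 68 lay higher with tamoxifen in both experiments, against 5204 of 17945 over all genes. An unadjusted p under 0.05 was reached by 64, all higher, against 871 of 17945 higher over all genes, and the median difference was 0.50 against 0.01. DNA replication genes had a median difference of 0.21, with 12 of 58 at an unadjusted p under 0.05. Interferon-stimulated genes had a median difference of -0.21, with 8 of 48 lower and none higher at that level, and monocyte genes had -0.23, with 7 of 22 lower and none higher.

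Against flox cells without tamoxifen, where Thoc5 had ratios of -0.74 and -0.77 against -0.40 and -0.28 (adjusted p = 0.086, limma), 245 genes (1.37%) rose more or fell less in the control cells and 234 (1.30%) the reverse. Each genotype has its own day 0 RNA, so such a difference can lie on either day. Ccl8 had ratios of 3.67 and 2.86 in control cells and 0.74 and 0.23 in flox cells, a difference of 2.78 (adjusted p = 0.019). Nrg1, the growth factor neuregulin 1, had 1.61 and 0.95 against -0.81 and -1.08. Thbs1 (2.72), Cd83 (2.30) and Gm3651 (2.17) also differed upward, and Chac1 (-2.75), Gpr84 (-1.75), Dtl (-1.69), Hells (-1.68) and 6720422M22Rik (-1.69) downward. Of the 72 mitosis genes, 43 were called lower in control cells and 1 higher, with a median difference of -0.82. Without the experiment term 2 genes were called higher and none lower, and of the 10 named here Cd83 alone was called (adjusted p = 0.013, limma). Leaving out single arrays gave 0 to 147 higher and 0 to 124 lower, with 0 and 0 without either tamoxifen-treated control array or either untreated flox array, 4 and 0 without either tamoxifen-treated flox array, 147 and 124 without the untreated control array of experiment 1, and 20 and 8 without that of experiment 2.

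With tamoxifen on both sides, when Thoc5 fell in the flox cells, 962 genes (5.36%) were higher in the control response and 868 (4.84%) lower. Of the 570 genes that rose at least 2-fold in control cells, 164 were called higher than in flox cells and 10 lower. Of the 1311 that fell at least 2-fold, 164 were called lower and 101 higher. Both sets were picked for large ratios on control arrays that also enter this comparison. That choice by itself favours larger changes in control than in flox cells, so no conclusion is drawn from these counts. Id1 differed by 4.95, with control values of 0.37 and 3.52 against -4.18 and -1.83, and Smad6 by 2.88. Ccl8 differed by 3.36, Nrxn2 by 2.81 and Thoc5 by 2.85, whereas Mcoln3, an ion channel of endosomes, differed by -2.55, Oit3 by -2.35 and Il7r by -2.24. A dimmer further probe of Mcoln3 had a mean of -0.06 over the 4 control arrays, against -0.79 on the probe used. The control side of its difference therefore depended on the probe. H2-M2 had -2.54 and Gm14461 -2.23, but their day 0 signal was well above background on 0 and 1 of the 4 control arrays, so the size of these differences was not measured. Of the 72 mitosis genes, 6 were called higher and 3 lower here, with a median difference of -0.04. The median over 13 MS4A and TMEM176 genes was 0.66, with 9 called higher and none lower. Over 77 lysosomal genes it was -0.28, with 2 called higher and 18 lower. Without the experiment term the counts were 272 and 191, and Id1 (adjusted p = 0.0997, limma), Smad6 (0.071) and Il7r (0.054) were not called. Without the tamoxifen-treated control array of experiment 1 or 2 they were 29 and 16, or 146 and 97. Without the tamoxifen-treated flox array of experiment 1 or 2 they were 175 and 170, or 168 and 70. Without either untreated control array 1356 genes were lower, and without either untreated flox array 557.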

How the data were processed

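Cytoplasmic RNA of day 3 and day 0 was labelled with Alexa fluor 647 and 555 and hybridised to 8 dual-colour Agilent arrays, 2 in each of 4 groups. Day 3 was red in experiment 1 and green in experiment 2, per the labels. The authors processed the scans with Agilent Feature Extraction 10.7.3.1, per the submitters' processing notes. The deposited scanner files hold the mean intensity of each spot and its local background intensity in both channels. They also hold the authors' log10 ratio of the processed signals of each spot, and the authors' value table gives the same log10 ratio turned to day 3 over day 0, equal to within 5e-10. Deposited flags of 0 or 1 mark saturated spots, outliers and spots well above background. Depth has no meaning for arrays, and their number limits the precision.

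Intensities were background corrected with normexp (offset 50) and normalized by loess within each array in limma 3.58.1 under R 4.3.3. Outlier spots were left out, spots of 1 probe averaged and ratios turned to day 3 over day 0. Probes entered if well above background on both arrays of a group in either channel and measured in each group (22407 of 39429 probes). Each gene took its brightest kept probe, and 840 of the 2457 called genes with a further kept probe had one of opposite sign. Names come from RefSeq (GRCm38.p6) by accession for 26418 probes, by symbol or synonym for 4585 and as deposited for 8426. Probe positions are mm9, from the deposited annotation, which places the probes of 7 of 1370 listed genes on another chromosome than RefSeq. These are Atp5k, Pgk1, Pigr, Rpl31, Rps27, Rps29 and Rps4x. Their values cannot be assigned to those genes, and the list counts include them unless stated.

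The limma fit over all 8 arrays held 4 group means, the experiment as a fixed term and, as a random block, the day 0 RNA that 2 arrays share (correlation 0.325), and eBayes p-values were adjusted by Benjamini-Hochberg over 17945 genes. Tests are two-sided. The replicate numbers mark the experiment: deviations of same-numbered arrays from their group means correlated at 0.311 to 0.729, so the number is a block here. On simulated data of 17945 genes, the shared response was called for 64% of genes changed by 0.5, 84% by 1 and 98% by 1.5 on the log2 scale, with 17 false calls of 189. The simulation drew normal errors from the fitted spread and changed far fewer genes than were called in the data. Its rates check the fit and do not describe the calls in the data.

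The text names the 15 genes that changed most in each direction (called, with 1 sign on the 4 arrays and well above background in the higher channel), the members of a list with the smallest p, up to 2 called members that moved against the list's median, and 5 genes in each direction of the other comparisons, or those with the smallest p where none was called. Names outside this rule are marked in the text, apart from Thoc5 and the 7 genes that differed by at least 2 between experiment means. The members and the 43 gene lists were chosen with earlier results of these data known. Alternatives are given at the end.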

Additional observations from a re-analysis of the deposited data

Results flagged for a closer look

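Named genes whose day 3 response differed between control and flox cells are given with the difference of log2 ratios, control minus flox, each at an adjusted p under 0.05 in limma. Without tamoxifen, control cells were higher for Ccl8 by 2.78, Thbs1 by 2.72, Cd83 by 2.30, Nrg1 by 2.22, Gm3651 by 2.17, Plac8 by 1.46, Cd5l by 1.21 and Ms4a3 by 1.10. They were lower for Chac1 (-2.75), Gpr84 (-1.75), Dtl (-1.69), 6720422M22Rik (-1.69) and Hells (-1.68).

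With tamoxifen, control cells were higher for Id1 by 4.95, Ccl8 by 3.36, Smad6 by 2.88, Thoc5 by 2.85, Nrxn2 by 2.81 and Raver2 by 2.59. Genes of the strongest shared rise were among them, with 2.08 for Cp, 2.08 for Enpp2, 2.04 for Cd5l, 1.89 for 1700003M07Rik, 1.85 for Asb2, 1.55 for Fgl2, 1.36 for Cd55, 1.25 for Cd55b, 1.09 for Tmem176a and 0.54 for Pgbd5. These genes were picked for high ratios on the same control arrays, which by itself favours higher values in control cells. Of the genes with the deepest fall, Ms4a3 differed by 1.20, Camp by 0.97 and Ctsg by 0.48, so that they fell less in control cells. Control cells were lower for Mcoln3 (-2.55), Oit3 (-2.35) and Il7r (-2.24). The mean of Mcoln3 over the 4 control arrays was -0.79 on the probe used and -0.06 on a dimmer further probe. H2-M2 (-2.54) and Gm14461 (-2.23) also passed, but their day 0 signal was well above background on 0 and 1 of the 4 control arrays, so the size of these differences was not measured.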

How the results depend on the processing

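The count of genes called higher and lower at day 3 stayed within 1.5 times the reported one under each alternative run: 3456 and 5259 without the experiment term (no replicate block), 5432 and 7455 on the 4 control arrays alone, and 3891 to 4525 and 5760 to 6554 when 1 array was left out. The 2-fold counts were 565 to 617 and 1311 to 1373 with 1 array left out. They moved to 1028 and 2009 with Agilent's processed ratio, to 1031 and 2013 with the deposited value table, and to 175 and 557 in a test against a 2-fold change. The first 2 start from Agilent's own processed signals, with 27.13 to 32.11% of the log ratios set to 0. Median centring in place of loess gave 528 and 1351, and the part of the other steps was not tested.

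Tamoxifen calls in control cells (0 and 0) became 21 and 13 with no replicate block and 5 and 10 with median centring, and ranged over 0 to 1 and 0 to 11 with 1 array left out. Calls against flox cells without tamoxifen became 2 and 0 with no replicate block, 3 and 1 with Agilent's ratio, 3 and 1 with the deposited table and 354 lower without a filter, and ranged over 0 to 147 and 0 to 124 with 1 array left out. Calls against flox cells with tamoxifen became 272 and 191 with no replicate block, 566 and 447 with Agilent's ratio and 567 and 454 with the deposited table, and ranged over 29 to 1377 and 16 to 1356. The cause was not tested; fits with 1 array left out use the block correlation of the full fit and assume that a lone array varies like the others. Csf1r turned to 0.35 with median centring and to 0.53 as the mean of its probes, both called higher. Over the named genes, 139 results lost and 40 gained a call under an alternative, of 3616, and list medians moved by more than the spread of the arrays in 63 of 860. Averaging the arrays of an experiment gave no value for the comparisons between groups, and the control arrays alone were fitted without the random block, which the experiment term absorbs.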
